A study of Homo sapiens with 18 samples.

Results

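FaDu is an HPV-negative head and neck squamous cell carcinoma line. In the form studied (FADU-hfm) it carries a hypoxia-fate-mapping reporter, which marks cells that have been through hypoxia with GFP and leaves the others DsRed-positive. The line was grown as spheroids and dissociated, and fluorescence-activated sorting separated non-hypoxic (DsRed-positive) from post-hypoxic (GFP-positive) cells. Both populations were then kept in culture and passaged, and their RNA was sequenced from its 3′ ends (QuantSeq), so that a count is a read near the end of a transcript. The comparison described here sets replicates 3 and 4 of both sorted populations (4 libraries) against replicates 1 and 2 of both (4 libraries), with the sorted population as a covariate. These are 8 of the 18 libraries of the series, and all 8 carry the same reporter. The remaining FaDu library, post-hypoxic replicate 5, lay outside the division. It was used as an independent library, as were 7 libraries of SCC154, an HPV-positive head and neck squamous carcinoma line with the same reporter (non-hypoxic replicates 1 to 4 and post-hypoxic replicates 2 to 4).

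The labels number the replicates but do not say whether a number marks a culture, a passage, a sort or an RNA extraction. Both sorted populations are represented once under every number from 1 to 4, so the division crosses the sort. Because the division was proposed with values of these libraries known, the differences between replicates 3-4 and 1-2 are given as a description, with no p-value for any gene. Results are tested on contrasts that the division did not use: replicate 2 against 1, replicate 4 against 3, post-hypoxic against non-hypoxic cells, the dependence of that difference on the division, replicate 5, and the same numbers in SCC154. The p-values of these tests measure the spread between the libraries sequenced, which may be technical. In replicate 2 against 1 and 4 against 3 each side is a single number. Its non-hypoxic and post-hypoxic libraries serve there as the replicates, although libraries of a number deviated together, most clearly for numbers 1 and 4. Those p-values therefore do not measure how much replicate numbers vary.

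Interferon-stimulated genes are switched on by a transcription factor complex that holds IRF9 after type I or type III interferon binds its receptor, and many epithelial cancer lines keep a low level of them without added interferon. The respiratory chain consists of inner mitochondrial membrane complexes whose subunits are encoded mostly in the nucleus and partly in mitochondrial DNA. Long non-coding RNAs such as MALAT1 and NEAT1 stay in the nucleus, whereas mRNAs for ribosomal proteins and respiratory subunits are short, stable and cytoplasmic. HIF transcription factors, stabilised in low oxygen, drive glycolytic, angiogenic and oxygen-sensing genes.

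The 8 libraries held between 1895511 and 2503573 counts, levels are given as CPM (counts scaled to TMM-adjusted library size), and 11315 genes were abundant enough to be tested. All 10 squamous epithelial markers, among them KRT5, TP63 and EPCAM, were detected in each library, with summed levels of 2248 to 2570 CPM in replicates 1-2 and 2141 to 2440 CPM in replicates 3-4. Markers of other cell types were near 0: fibroblast markers summed to 1.71 to 5.00 CPM in replicates 1-2 and 1.61 to 3.41 CPM in replicates 3-4, endothelial markers to 0 to 1.28 and 0.402 to 1.46 CPM, and immune markers to 0.908 to 2.13 and 2.10 to 4.87 CPM. No count was found in any of the 8 libraries for COL3A1, DCN, LUM, PDGFRA, PDGFRB, KDR, TEK, CLDN5, PTPRC, CD3E, CD79A, LYZ or NKG7. The 20 genes most specific to SCC154 summed to 16.1 to 21.8 CPM in replicates 1-2 and 11.7 to 16.8 CPM in replicates 3-4, against 4952 to 5556 CPM in SCC154 libraries.

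Replicate 1 lay farthest from replicates 3 and 4, and results are given with and without its 2 libraries. The results depended on the other numbers too. Of 30 list medians, 13 changed sign without replicate 1, 6 without replicate 2, 3 without replicate 3 and 6 without replicate 4. The number of genes past the threshold across the division fell furthest without replicate 4, as given at the end. Within a sorted population, the variation between libraries in excess of counting noise (chi-square per degree of freedom, 1 if counting noise were the only source) was 1.90 and 1.84 between replicates 3 and 4, 5.17 and 3.36 between replicates 1 and 2, and 9.02 and 6.98 between replicates 1 and 4. Between replicates 2 and 4 it was 5.74 and 3.68, slightly more than between replicates 1 and 2, so replicate 1 was not the only number set apart. Between replicates 2 and 3 it was 4.19 and 2.13, less than between replicates 1 and 2 in both populations. By this measure replicate 2 lay nearer to replicate 3, across the division, than to replicate 1 on its own side. The division is therefore not a grouping of nearest libraries. Replicates 3 and 4 were thus the most similar pair of numbers in both populations, and replicates 1 and 4 the least.

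For 1864 of 11315 tested genes (16.5%) the 4 libraries of replicates 3-4 did not overlap the 4 of replicates 1-2, with 1044 higher in 3-4 (9.23%) and 820 lower (7.25%). These 2 shares are the background for the counts of list members without overlap. With upper-quartile in place of TMM scaling 803 genes were higher and 1014 lower without overlap, so the direction that held more genes turned round with the scaling. Of the 1864 genes, 77 were at least 2-fold higher and 46 at least 2-fold lower, and the median log2 fold change over all tested genes was -0.01. Libraries with the same number deviated together, most clearly for numbers 1 and 4, so that the division has in effect 2 numbers on each side. The SE printed with a difference across the division takes the 4 libraries of a side as independent. It is therefore likely to be too small, here and in what follows.

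Interferon-stimulated genes were lower in replicates 3-4 than in 1-2. Of 45 listed genes with counts, 35 were tested; 32 of these were lower in 3-4, the list's median log2 fold change was -0.44 against -0.01 for all tested genes, and 16 members were lower with no overlap between the 4 and 4 libraries (7.25% of all tested genes were; the division was chosen on these values, so the share supports nothing). The 3 members above 0 were ISG20 (0.32 ± 0.24, SE), IRF1 (0.10 ± 0.15) and HERC5 (0.05 ± 0.20). The summed level of the list was 1979 and 2210 CPM in the non-hypoxic and post-hypoxic libraries of replicate 1 and 1740 and 1943 CPM in those of replicate 2. It was 1250 and 1448 CPM in replicate 3 and 1183 and 1356 CPM in replicate 4. The post-hypoxic library had the higher sum under each of the 4 numbers. The list's median was -0.44 without replicate 1, -0.52 without replicate 2, -0.57 without replicate 3 and -0.43 without replicate 4.

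The interferon-activated complex binds a short response element, and the promoters of separated members show where it lies. The windows of 250 bases before the RefSeq start (build GRCh38.p14, gene strand, 5′ to 3′) are shown for 4 of the 16 separated members: IFI27 (chr14:94110486-94110735, plus strand), IFI44L (chr1:78620198-78620447, plus strand), BST2 (chr19:17405631-17405880, minus strand) and DDX60 (chr4:168318753-168319002, minus strand). Capitals mark matches to the interferon-stimulated response element, searched as GAAANNGAAA on both strands.
IFI27: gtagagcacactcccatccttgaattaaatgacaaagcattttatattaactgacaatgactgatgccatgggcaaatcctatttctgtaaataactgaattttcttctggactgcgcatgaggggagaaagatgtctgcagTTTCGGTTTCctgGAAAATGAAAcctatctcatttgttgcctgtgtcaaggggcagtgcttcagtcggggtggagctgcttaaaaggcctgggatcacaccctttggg
IFI44L: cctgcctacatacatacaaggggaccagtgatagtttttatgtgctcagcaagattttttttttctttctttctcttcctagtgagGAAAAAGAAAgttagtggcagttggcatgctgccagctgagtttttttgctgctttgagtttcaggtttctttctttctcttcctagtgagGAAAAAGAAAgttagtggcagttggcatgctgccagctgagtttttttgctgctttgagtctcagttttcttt
BST2: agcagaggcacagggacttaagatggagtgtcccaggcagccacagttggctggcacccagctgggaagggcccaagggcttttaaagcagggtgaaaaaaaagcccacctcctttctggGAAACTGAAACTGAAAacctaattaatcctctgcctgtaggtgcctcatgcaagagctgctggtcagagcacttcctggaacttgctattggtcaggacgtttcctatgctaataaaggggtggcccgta
DDX60: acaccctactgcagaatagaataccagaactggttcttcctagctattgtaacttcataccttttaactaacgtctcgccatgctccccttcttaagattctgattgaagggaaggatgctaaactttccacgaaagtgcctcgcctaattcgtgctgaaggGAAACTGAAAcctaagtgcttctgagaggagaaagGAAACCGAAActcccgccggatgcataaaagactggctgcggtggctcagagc

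Each of these windows held 2 matches, and those of BST2 overlap by 4 bases in a run of GAAACTGAAACTGAAA. A window was found for 14 of the 16 separated members, and 8 of these (57.1%) held the motif. Among the other tested interferon-stimulated genes it was present in 10 of 15 windows (66.7%), in all tested genes in 203 of 8980 (2.26%), and in all RefSeq promoter windows in 1061 of 35116 (3.02%). A match is a description of these letters and not a measured binding site.

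IFI27, a small hydrophobic protein strongly induced by type I interferon (chr14:94104836-94116698), had the highest level of these. It stood at 292 and 330 CPM in the non-hypoxic and post-hypoxic libraries of replicate 1 and at 252 and 271 CPM in those of replicate 2. It stood at 107 and 139 CPM in replicate 3 and at 80.8 and 124 CPM in replicate 4, a difference of -1.35 ± 0.11 (log2, SE). The lowest library of replicates 1-2 was above the highest of replicates 3-4 (252 against 139 CPM), and without replicate 1 the difference was -1.22. IFI44L, an antiviral and feedback gene next to IFI44 on chromosome 1 (chr1:78619922-78646145), was at 27.1, 30.8, 9.39 and 19.1 CPM in replicates 1 and 2 and at 5.36, 4.45, 3.67 and 3.62 CPM in replicates 3 and 4 (each number's non-hypoxic library first). Its difference was -2.31 ± 0.35 and was -1.71 without replicate 1; it was also lower in replicate 2 than in 1 (-1.05 ± 0.25, adjusted p = 0.0089, edgeR quasi-likelihood test). BST2, or tetherin, which holds budding virions at the cell surface (chr19:17402939-17405648), was at 32.7, 34.6, 23.0 and 25.9 CPM in replicates 1-2 and at 8.77, 12.9, 10.5 and 12.9 CPM in replicates 3-4. The 2 sets did not overlap, and the difference was -1.36 ± 0.19.

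The GTPase MX1, which traps viral nucleocapsids, was at 54.3, 41.5, 20.1 and 26.3 CPM in replicates 1-2 and at 8.28, 19.2, 14.2 and 17.3 CPM in replicates 3-4. Its sets only just separated, the difference went from -1.26 ± 0.29 to -0.66 without replicate 1, and it was lower in replicate 2 than in 1 (-1.07 ± 0.22, adjusted p = 0.0033, edgeR). DDX60, a helicase that assists RNA sensing by RIG-I-like receptors, was at 42.3, 33.0, 40.1 and 30.4 CPM in replicates 1-2 and at 23.4, 23.2, 19.4 and 16.9 CPM in replicates 3-4 (-0.81 ± 0.15), with -0.75 without replicate 1. PARP14, a mono-ADP-ribosyltransferase of the same programme, was at 212, 225, 231 and 214 CPM against 153, 163, 138 and 153 CPM (-0.54 ± 0.08). SAMD9 (-0.47 ± 0.09), PARP9 (-0.44 ± 0.10), SAMD9L (-1.20 ± 0.32) and IFI44 (-0.83 ± 0.18) were also without overlap.

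Among the factors that carry the signal, IRF9 was at 20.2, 23.9, 17.1 and 15.9 CPM in replicates 1-2 and at 7.79, 14.7, 11 and 14.9 CPM in replicates 3-4 (-0.67 ± 0.21), again without overlap. STAT2 differed by -0.17 ± 0.15 and its libraries overlapped. ISG15, the ubiquitin-like modifier, was at 243, 346, 162 and 203 CPM in replicates 1-2 and at 130, 169, 134 and 159 CPM in replicates 3-4. These overlapped, since replicate 2 (162 CPM) lay below replicate 3 (169 CPM), and ISG15 was lower in replicate 2 than in 1 (-0.68 ± 0.10, adjusted p = 8.6e-05, edgeR). The IFIT family members IFIT1 (-0.32 ± 0.20), IFIT2 (-0.33 ± 0.23) and IFIT3 (-0.44 ± 0.14) overlapped between the 2 sets.

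In the tested contrast of replicate 2 against 1, in which 598 genes passed an adjusted p of 0.05 as higher (5.29%) and 429 as lower (3.79%), 3 of the 35 interferon-stimulated genes were lower (IFI44L, MX1 and ISG15) and 1 was higher (IFIT1, 0.63 on the log2 scale, adjusted p = 0.020, edgeR). In replicate 4 against 3 none of the 35 passed (31 of all tested genes did, 0.274%), and the list's medians in these contrasts were -0.19 and -0.09. Of 18 tested genes of the antigen presentation machinery, which interferon also induces, 3 were lower in 3-4 without overlap and 2 higher, beside 7.25% and 9.23% of all tested genes, and the median was -0.04. PSME2, a proteasome activator subunit, was at 44.6, 42.5, 64.8 and 47.2 CPM in replicates 1-2 and at 38, 41.4, 31 and 37.4 CPM in replicates 3-4 (-0.43 ± 0.16), while the chaperone CALR differed by 0.39 ± 0.08. The 19 tested NF-kB targets and cytokines had no member without overlap and a median of -0.03.

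**Figure D1:**
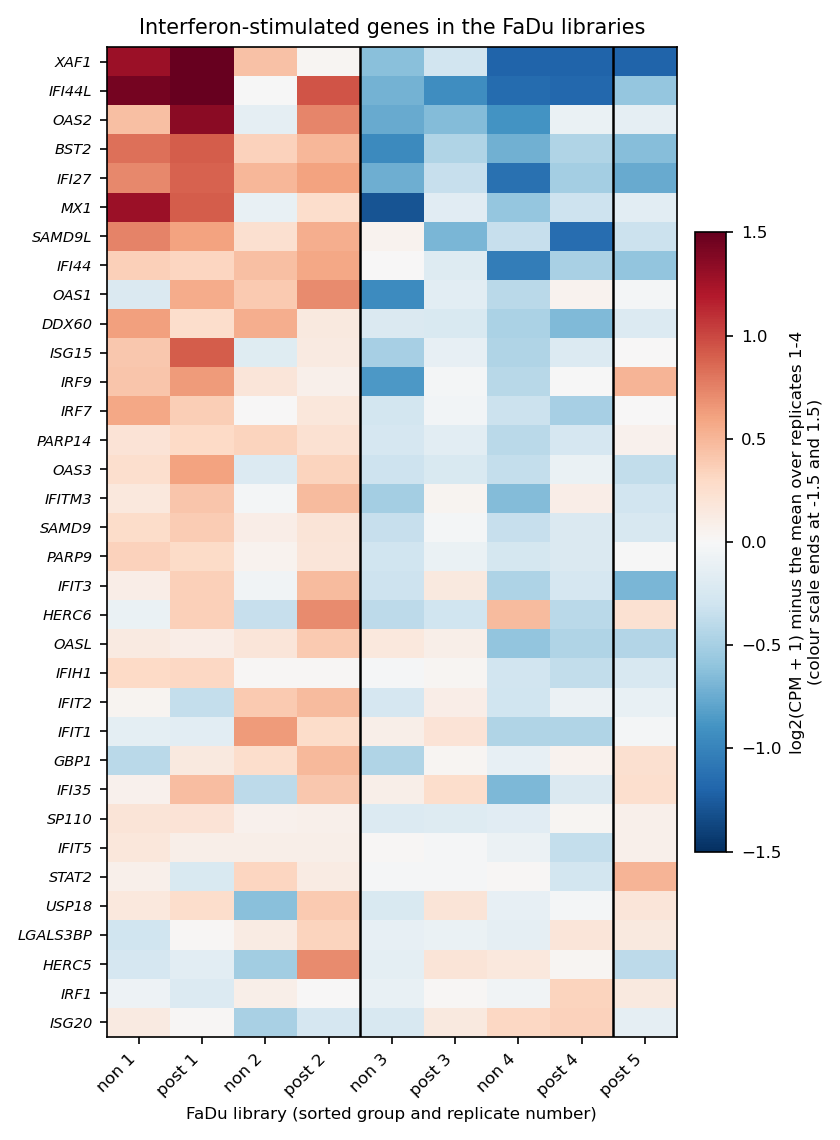
Levels of 34 of the 35 tested interferon-stimulated genes (rows, ordered by the difference between replicates 3-4 and 1-2) in the 9 FaDu libraries (columns; the black lines separate replicates 1-2, 3-4 and 5), as log2(CPM + 1) minus the gene's mean over the 8 libraries of replicates 1-4. Most rows are red in replicates 1-2 and blue in replicates 3-4, and the rows at the bottom, from USP18 to ISG20, differ by 0.32 or less.

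Orphan nuclear receptors of the NR4A family, which respond within minutes to hours to growth factors, stress and handling, were also among the 14 genes with the largest lower values in replicates 3-4. NR4A2 was at 58.4, 44.1, 36.3 and 35.4 CPM in replicates 1-2 and at 14.6, 14.3, 17.8 and 23.7 CPM in replicates 3-4 (-1.29 ± 0.20). NR4A1 was at 55.7, 35.6, 29 and 42.2 CPM and then at 11.7, 16.5, 26.8 and 27.7 CPM (-0.97 ± 0.25). Both were higher in replicate 5 (66.0 and 76.2 CPM) than in any of the 8 libraries. Of the 25 tested immediate early genes, 3 were lower and 1 higher without overlap, beside 7.25% and 9.23% of all tested genes, with a median of 0.02 (-0.02 with upper-quartile scaling). FOSB was at 44.2, 32.4, 54.2 and 39.1 CPM and then at 24.8, 13.8, 28.3 and 31.0 CPM (-0.78 ± 0.19). In the test of replicate 2 against 1, 6 members were lower and 1 higher, beside 3.79% and 5.29% of all tested genes, the lower ones including FOSL1 (-1.0, adjusted p = 9.1e-05, edgeR). In replicate 4 against 3, in which 25 genes were higher (0.221%) and 6 lower (0.053%), 4 members were higher. These were JUN (0.80, adjusted p = 6.6e-05, edgeR), FOS (0.67, adjusted p = 0.014), EGR1 (0.41, adjusted p = 0.025) and KLF2 (1.7, adjusted p = 0.040). JUN was at 143 and 146 CPM in replicate 3 and at 256 and 247 CPM in replicate 4, with 179 to 212 CPM in replicates 1-2.

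The other genes with the largest lower values included IGFBP3, which binds insulin-like growth factors, at 15.6, 18.6, 17.9 and 17.7 CPM in replicates 1-2 and 6.33, 5.79, 11.5 and 10.5 CPM in replicates 3-4 (-1.03 ± 0.23, and -1.05 without replicate 1). SLCO1A2, an organic anion transporter, differed by -1.02 ± 0.24, the uncharacterised C6orf141 by -1.02 ± 0.28, the long non-coding LINC01629 by -0.98 ± 0.21 and the sorting nexin SNX14 by -0.96 ± 0.20. For 3 others, reads may be shared with another gene. HMGN1P8 (-1.75 ± 0.27) is a processed pseudogene whose span lies within PDCD10 on the same strand, THAP9-AS1 (-0.94 ± 0.18) ends where SEC31A is transcribed on the same strand, and POTEF (-1.29 ± 0.29) belongs to a family of near-identical genes.

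**Figure D2:**
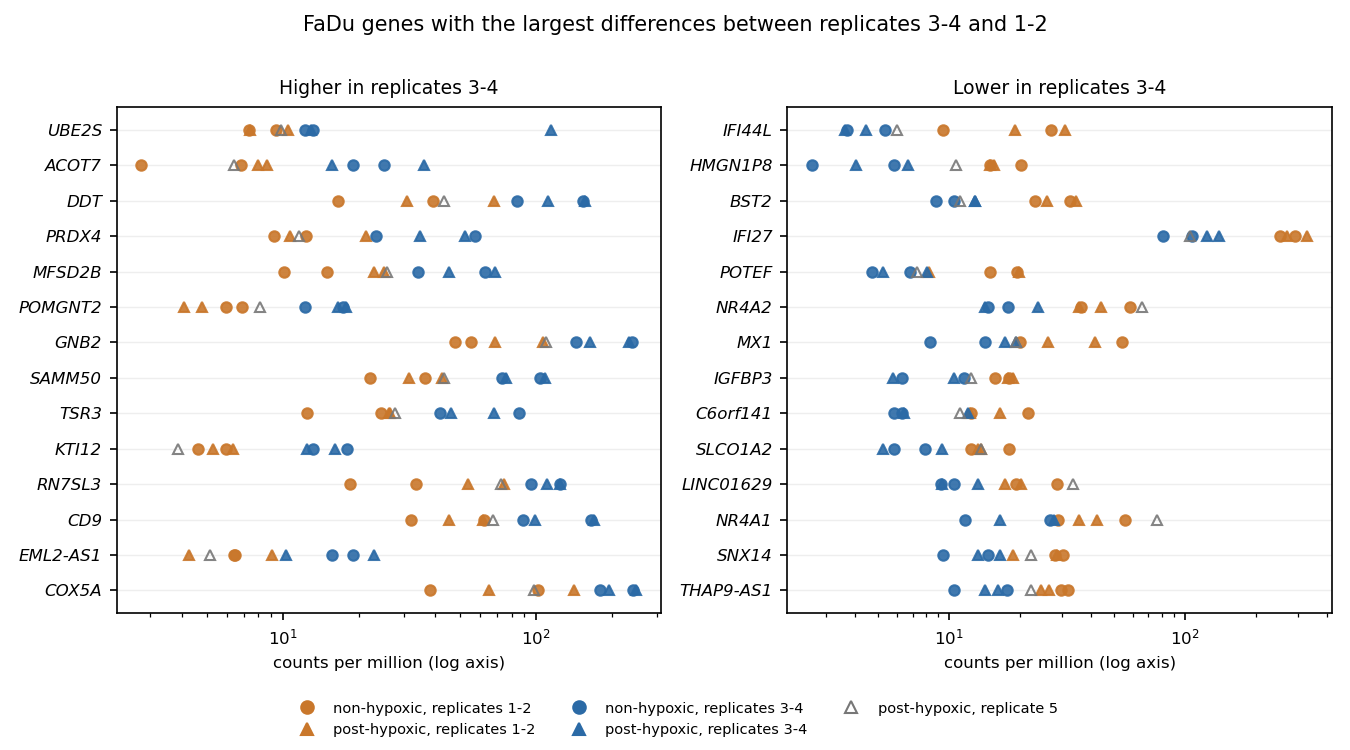
Level (CPM, log axis) in every FaDu library of the 14 genes with the largest higher (left) and the 14 with the largest lower (right) values in replicates 3-4 among genes with at least 10 CPM and no overlap. Circles are non-hypoxic and triangles post-hypoxic libraries. Orange marks replicates 1-2, blue replicates 3-4 and open grey replicate 5. On the left, replicate 5 lies within the orange range for 7 of 14 genes, between the orange and blue ranges for 6 and below both for 1. On the right, it lies below the orange range for 9 of 14 genes, within it for 2 and above it for 3.

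Nuclear subunits of the respiratory chain were the list with the highest median in replicates 3-4. Of 68 tested subunits 61 were higher and 31 were higher without overlap (9.23% of all tested genes were, and the division was chosen on these values), with a median of 0.39. The summed level was 9757 and 10831 CPM in the non-hypoxic and post-hypoxic libraries of replicate 1 and 13407 and 13410 CPM in those of replicate 2. It was 14730 and 14846 CPM in replicate 3 and 15920 and 15770 CPM in replicate 4. All 4 libraries of replicates 3-4 were above the other 4, but the widest gap lay between replicates 1 and 2. Without replicate 1 the median was 0.18, and without replicate 2 it was 0.69.

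In the tested contrast of replicate 2 against 1, 42 of the 68 subunits were higher and none lower, beside 5.29% and 3.79% of all tested genes. By complex, 17 of 30 subunits of complex I were higher, 1 of 4 of complex II, 6 of 9 of complex III, 9 of 10 of complex IV and 9 of 15 of ATP synthase. COX5A, a structural subunit of cytochrome c oxidase (chr15:74919791-74938168), was at 38.2 and 65.4 CPM in replicate 1 and 102 and 141 CPM in replicate 2. It was at 178 and 195 CPM in replicate 3 and 241 and 249 CPM in replicate 4. COX5A was higher in replicate 2 than in 1 (1.24 ± 0.15, adjusted p = 2.8e-05, edgeR), its difference between 4 and 3 was 0.39 ± 0.11 (adjusted p = 0.22), and across the division it was 1.32 ± 0.24, or 0.85 without replicate 1. The catalytic subunit of ATP synthase, ATP5F1B (chr12:56638175-56646068), was at 77.3, 95.7, 117 and 155 CPM in replicates 1-2 and at 210, 207, 288 and 297 CPM in replicates 3-4. It was higher in replicate 2 than in 1 (0.65 ± 0.12, adjusted p = 0.0016, edgeR) and in 4 than in 3 (0.48 ± 0.10, adjusted p = 0.029). Across the division it differed by 1.17 ± 0.17, or 0.89 without replicate 1. SDHC, a membrane anchor of complex II, was at 36.4, 32.4, 53.8 and 59.9 CPM and then at 91.1, 87.8, 119 and 110 CPM (1.15 ± 0.17, and 0.85 without replicate 1). Subunits that overlapped across the division include NDUFA4, at 67.6, 92.0, 128 and 162 CPM in replicates 1-2 and 144, 180, 163 and 165 CPM in replicates 3-4.

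The subunits encoded in mitochondrial DNA ran the other way. Of 13 mRNAs 12 were lower in replicates 3-4, 6 of them without overlap (7.25% of all tested genes were), with a median of -0.33 (-0.29 without replicate 1). MT-CYB, the complex III subunit, was at 1119, 1073, 1337 and 835 CPM in replicates 1-2 and at 821, 713, 703 and 694 CPM in replicates 3-4 (-0.56 ± 0.09). MT-ND4, of complex I, was at 1592, 1599, 1919 and 1356 CPM and then at 1186, 1099, 1086 and 1063 CPM (-0.54 ± 0.08). The exception was MT-ND6, the only mRNA read from the light strand, at 138, 198, 143 and 128 CPM and then at 314, 224, 236 and 203 CPM (0.68 ± 0.14). MT-ND6 lies between MT-ND5 and MT-CYB on the other strand and the counting strand is not stated, so reads across its ends cannot be told apart from theirs. In the test of replicate 2 against 1, in which 3.79% of all tested genes were lower, 2 of the 13 were lower (MT-ND5, -0.30, adjusted p = 0.022, and MT-ATP8, -0.54, adjusted p = 0.00044), none was higher, and the median was -0.03.

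Ribosomal protein, cholesterol synthesis and unfolded protein response genes also had positive medians, and those of the first 2 lists were smaller without replicate 1. Of 77 cytosolic ribosomal protein mRNAs 67 were higher, 26 without overlap (9.23% of all tested genes were), with a median of 0.20 and of 0.11 without replicate 1. In replicate 2 against 1, 24 of them were higher and none lower, beside 5.29% and 3.79% of all tested genes. RPL37A was at 626, 846, 1033 and 1066 CPM in replicates 1-2 and at 1392, 1417, 1749 and 1586 CPM in replicates 3-4 (0.79 ± 0.13, or 0.56 without replicate 1), and it was higher in replicate 2 than in 1 (0.52 ± 0.10, adjusted p = 0.0018, edgeR). Ribosomal protein mRNAs have many processed pseudogenes that can take or lose reads, so single members are uncertain. Cholesterol synthesis enzymes were higher in 19 of 24, 7 without overlap (9.23% of all tested genes), with a median of 0.25 and of 0.11 without replicate 1. In the test of replicate 2 against 1, 9 of the 24 were higher (5.29% of all tested genes). ACAT2, which makes the acetoacetyl-CoA used at the start of the pathway, was at 33.1, 33.5, 55.5 and 44.1 CPM and then at 60.4, 61.9, 66.1 and 73.6 CPM (0.65 ± 0.16). Of 23 genes of the unfolded protein response 8 were higher without overlap (9.23% of all tested genes), with a median of 0.12 and of 0.10 without replicate 1. XBP1, its transcription factor, was at 26.7, 27.7, 32.9 and 42.7 CPM and then at 46.3, 55.2, 56.7 and 74.4 CPM (0.83 ± 0.16).

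**Figure D3:**
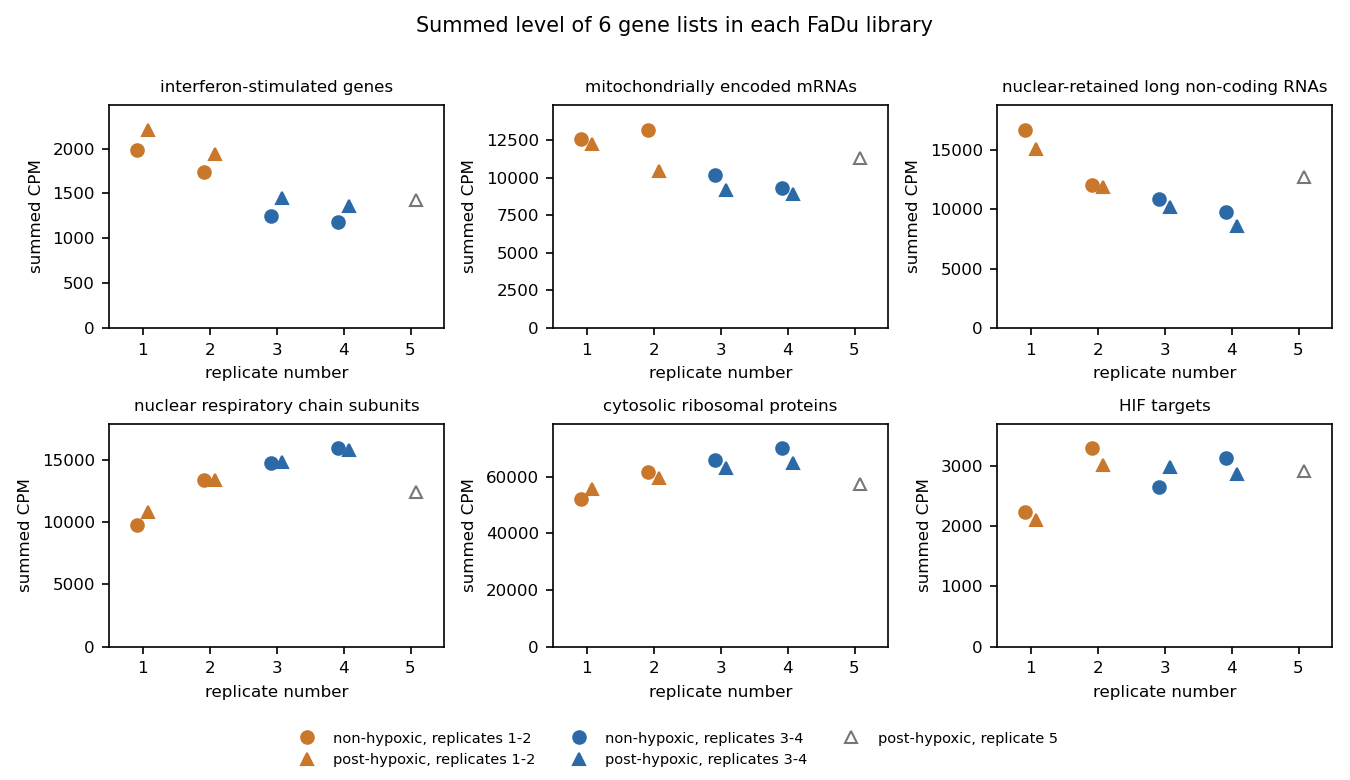
Summed level (CPM, axes from 0) of 6 gene lists in each FaDu library by replicate number; circles are non-hypoxic and triangles post-hypoxic libraries, orange replicates 1-2, blue replicates 3-4, open grey replicate 5. Interferon-stimulated genes separate replicates 1-2 (1740 to 2210 CPM) from 3-4 (1183 to 1448 CPM) and place replicate 5 with the second set (1422 CPM), whereas respiratory chain subunits place it with the first (12411 CPM).

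Among single genes with the largest higher values, DDT, a homologue of the cytokine MIF (chr22:23971365-23979828), was at 16.6, 30.8, 39.3 and 68.1 CPM in replicates 1-2 and at 83.8, 112, 154 and 156 CPM in replicates 3-4. Its difference was 1.72 ± 0.26, and it was higher in replicate 2 than in 1 (1.18 ± 0.21, adjusted p = 0.00080) and in 4 than in 3 (0.67 ± 0.14, adjusted p = 0.025, edgeR). The DDT locus overlaps DDTL on the other strand, so reads of the 2 cannot be told apart. CD9, a tetraspanin of the cell surface and of extracellular vesicles (chr12:6199715-6238271), was at 32.2, 45.2, 62.3 and 61.8 CPM and then at 88.7, 98.9, 164 and 170 CPM (1.36 ± 0.22). CD9 too was higher in both tested contrasts (0.69 ± 0.16, adjusted p = 0.0060, and 0.83 ± 0.12, adjusted p = 0.00061, edgeR). PRDX4, the peroxiredoxin of the endoplasmic reticulum, was at 9.20, 10.6, 12.4 and 21.3 CPM and then at 23.4, 34.7, 57.2 and 52.3 CPM (1.63 ± 0.28). GNB2, a G protein beta subunit, differed by 1.51 ± 0.19, ACOT7, an acyl-CoA thioesterase, by 1.87 ± 0.30, and POMGNT2, a glycosyltransferase of dystroglycan, by 1.54 ± 0.24.

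The gene at the head of this list, UBE2S, an E2 enzyme of the anaphase-promoting complex, rests on 1 library: it was at 115 CPM in post-hypoxic replicate 3 and at 12.2, 13.1 and 12.9 CPM in the other libraries of replicates 3-4, against 7.36 to 10.4 CPM in replicates 1-2. The end of UBE2S lies opposite RPL28. Overlap with another gene also makes MFSD2B (FKBP1B), SAMM50 (PARVB), TSR3 (BAIAP3), KTI12 (TXNDC12) and EML2-AS1 (EML2) uncertain, and RN7SL3 is 1 of many near-identical 7SL copies. Of the 14 genes 4 were higher in replicate 2 than in 1 (5.29% of all tested genes were). In replicate 4 against 3, DDT, PRDX4 and CD9 were higher and UBE2S lower. Separated members of other lists included SLC3A2, the shared chain of several amino acid transporters, at 74.1, 78.2, 105 and 122 CPM and then at 175, 194, 233 and 229 CPM (1.12 ± 0.14), and the receptor kinase AXL, at 12, 13.8, 23.9 and 23.2 CPM and then at 39.0, 41.0, 41.5 and 39.8 CPM (1.13 ± 0.19).

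Long non-coding RNAs and genes with long spans were lower in replicates 3-4. Of 515 tested long non-coding RNAs 70 were lower without overlap and 10 higher (13.6% and 1.94%), with a median of -0.22. Among 10301 protein-coding genes these were 714 and 997 (6.93% and 9.68%), with a median of -0.01. MALAT1, a nuclear speckle RNA and the most abundant of these, was at 12079, 11445, 8060 and 8385 CPM in replicates 1-2 and at 7725, 7301, 7256 and 6362 CPM in replicates 3-4 (-0.48 ± 0.11). Most of that lay in replicate 1, since MALAT1 was lower in replicate 2 than in 1 (-0.51, adjusted p = 0.00044, edgeR) and differed by -0.19 across the division without replicate 1. NEAT1, the scaffold of paraspeckles, was at 3652, 2796, 3009 and 2570 CPM and then at 2266, 2040, 1751 and 1496 CPM (-0.67 ± 0.10, and -0.55 without replicate 1), and it was lower in replicate 4 than in 3 (-0.41 ± 0.08, adjusted p = 0.022). FTX was at 65.3, 57.4, 49.5 and 46.3 CPM and then at 39.9, 33.4, 23.1 and 18.9 CPM (-0.92 ± 0.19).

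When the tested genes were ranked by the length of their span in the annotation and divided into 5 groups of equal size, the median difference was 0.07, 0.04, 0.01, -0.05 and -0.10 from the shortest to the longest. In the shortest group 13% of genes were higher and 4.72% lower without overlap, and in the longest the shares were 3.56% and 11.4%. Among protein-coding genes alone the medians were 0.09, 0.04, 0.01, -0.05 and -0.10. The same groups of genes gave 0.12, 0.07, 0.01, -0.02 and -0.05 in replicate 2 against 1 and 0.03, 0.02, -0.00, -0.01 and -0.03 in replicate 4 against 3. The medians by chromosome ran from -0.07 (chromosome 18) to 0.07 (chromosome 22), and those of 222 windows of 10 Mb from -0.19 to 0.16.

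The composition of the libraries moved with these genes. Long non-coding RNAs took 2.48 to 3.05% of counts in replicates 1-2 and 1.95 to 2.27% in replicates 3-4. MALAT1 and NEAT1 together took 1.1 to 1.59% and 0.781 to 0.980%, mitochondrial mRNAs 1.05 to 1.32% and 0.883 to 0.997%, and protein-coding genes 93.2 to 94.3% and 94.5 to 95.2%. None of these ranges overlapped. Sequencing depth did overlap, at 1895511 to 2334283 and 1966123 to 2503573 counts. RNA integrity is not given in the sources used here, and the part of RNA quality or of the nuclear share of RNA in the differences was not tested. In bulk RNA, fewer cells with a transcript and less of it per cell cannot be told apart.

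Targets of HIF differed between replicates 1 and 2, and none was separated across the division. Of 28 tested targets 16 were higher in replicate 2 than in 1 (beside 5.29% of all tested genes), none was lower, and the median was 0.65. DDIT4, an mTORC1 inhibitor induced by hypoxia and by ATF4 (chr10:72273920-72276036), was at 73.2 and 60.1 CPM in replicate 1 and at 213 and 238 CPM in replicate 2 (1.74 ± 0.17, adjusted p = 8.4e-07, edgeR). In replicates 3-4 it was at 168, 299, 233 and 225 CPM, around the level of replicate 2. EGLN3, a HIF prolyl hydroxylase, was at 3.68 and 2.13 CPM and then at 16.6 and 13.2 CPM (2.32 ± 0.40, adjusted p = 0.00078), and in replicates 3-4 at 2.92 to 7.87 CPM. NDRG1 (1.34, adjusted p = 0.00065), the glucose transporter SLC2A1 (0.82, adjusted p = 8.6e-05) and the angiogenic factor VEGFA (0.64, adjusted p = 0.0045, edgeR) were also higher, while the carbonic anhydrase CA9 (7.36, 2.13, 8.96 and 11.4 CPM) did not pass. Across the division the median was 0.07, or -0.21 without replicate 1. In replicate 4 against 3 none of the 28 passed.

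In the same contrast of replicate 2 against 1, in which 5.29% of all tested genes were higher and 3.79% lower, 8 of 19 glycolysis genes were higher, among them ALDOC (1.27, adjusted p = 0.00039) and TPI1 (0.79, adjusted p = 5.3e-05, edgeR), and 4 of the 8 are also in the HIF list. Of 34 ATF4 pathway genes 15 were higher and 2 lower (ATF3 and ATF5), the higher ones including the neutral amino acid transporter SLC38A2 (0.67, adjusted p = 8.6e-05), the serine synthesis enzyme PHGDH (0.61, adjusted p = 0.0018) and ATF4 itself (0.37, adjusted p = 0.0063). Genes of the epithelial-mesenchymal transition list were lower in 7 of 24 cases and higher in 1. TAGLN, an actin-binding protein (chr11:117199321-117204782), was at 35.9 and 36.7 CPM in replicate 1, at 5.55 and 4.09 CPM in replicate 2 and at 4.90 to 10.5 CPM in replicates 3-4 (-2.89 ± 0.28 from 1 to 2, adjusted p = 8.4e-07). MYL9, a myosin light chain, differed by -1.08 (adjusted p = 0.00050), and LOXL2, a collagen cross-linking enzyme, by 1.27 (adjusted p = 0.00044). TNFAIP3, an inhibitor of NF-kB, was at 56.1 and 75.5 CPM and then at 15.4 and 30.4 CPM (-1.53 ± 0.20, adjusted p = 5.3e-05). In all, 1027 genes (9.08%) passed between replicates 2 and 1, in a contrast of 2 libraries a side; 173 passed in DESeq2.

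Replicates 4 and 3 differed in far fewer genes: 31 passed in edgeR and 4 in DESeq2. Besides those already named, HCFC1, a chromatin cofactor, was at 34.6 and 44.1 CPM in replicate 3 and 62.4 and 85.6 CPM in replicate 4 (0.91 ± 0.16, adjusted p = 0.0076, edgeR) and the heme-binding protein CYB5D2 at 67.2 and 57.0 CPM and then 114 and 121 CPM (0.93 ± 0.13, adjusted p = 0.00061). The metallothionein MT1E was at 149 and 126 CPM and then 95.5 and 70.8 CPM (-0.73 ± 0.14, adjusted p = 0.014). Some of the largest values in both contrasts belong to pseudogenes of abundant mRNAs, such as RPL17P6, at 37.3, 71.8, 27.7 and 37.2 CPM in replicates 1-2, 0.974 and 0 CPM in replicate 3, and 33.6 and 39.0 CPM in replicate 4. Reads of such copies may belong to their parent genes.

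**Figure D4:**
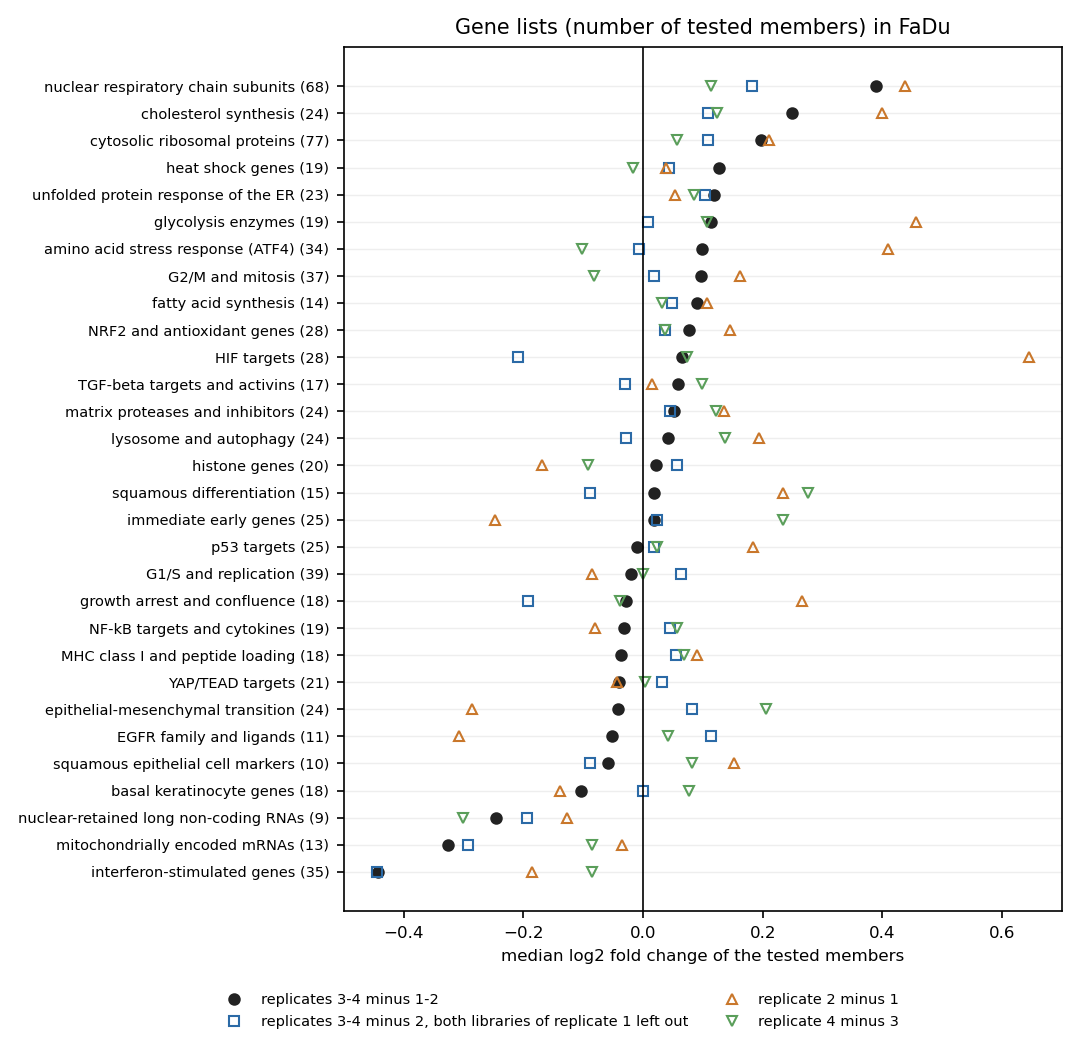
Median log2 fold change of the tested members of 30 gene lists (number of members in parentheses) across the FaDu division (black), the same without replicate 1 (blue squares), and in replicate 2 against 1 (orange) and 4 against 3 (green). Interferon-stimulated genes have the same median with and without replicate 1 (-0.44), respiratory chain subunits go from 0.39 to 0.18, and HIF targets from 0.07 to -0.21 beside 0.65 in replicate 2 against 1.

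The sort itself showed little beside these differences. With the division in the model, 0 of 11315 genes passed between post-hypoxic and non-hypoxic cells in edgeR (lowest adjusted p = 0.126; 488 genes at an unadjusted p under 0.05; 3 genes in DESeq2). With the replicate number as a block, 9 passed (0.0795%). The 5 that were higher in post-hypoxic cells (0.0442% of all tested) were LINC02582, IGF2BP1, TK1, PM20D2 and ISG15 (0.37 ± 0.07, adjusted p = 0.026), and the 4 lower (0.0354%) were INHBA and the pseudogenes FTH1P20, PTMAP2 and RPS12P26. FTH1P20 was at 307 CPM in non-hypoxic replicate 2, beside 0 to 3.18 CPM in the other libraries of replicates 1-2. PTMAP2 was at 47.7 CPM in non-hypoxic replicate 3, beside 11.1 to 14.7 CPM in the other libraries of replicates 3-4. Both calls may thus rest largely on single libraries. TK1, the S-phase thymidine kinase, was at 110 and 146 CPM (non-hypoxic, then post-hypoxic) in replicate 1, 117 and 253 in replicate 2, 143 and 220 in replicate 3 and 128 and 174 in replicate 4 (0.67 ± 0.09, adjusted p = 0.00049). Whether the sort's effect differed between replicates 3-4 and 1-2 was tested as an interaction: no gene passed in edgeR (lowest adjusted p = 1.00; 230 genes at an unadjusted p under 0.05), and 6 passed with the replicate number as a block.

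Post-hypoxic replicate 5 was nearer to replicates 1-2 than to 3-4 in most of the separated genes. Its summed level of all listed interferon-stimulated genes (1422 CPM) lay within the range of replicates 3-4 (1183 to 1448 CPM). Against the midpoint of the post-hypoxic levels of replicates 1-2 and 3-4, no gene passed (lowest adjusted p = 0.373, edgeR; 986 genes at an unadjusted p under 0.05), in a test of 1 library whose spread was taken from the others. For the 1044 genes that were higher in 3-4 without overlap, replicate 5 was nearer to the mean of replicates 3-4 in 16.7%, for the 820 lower genes in 35.2%, and for all tested genes in 43.0%. Of the 16 separated interferon-stimulated genes 13 were below the lowest library of replicates 1-2 in replicate 5, and 6 of the 16 were within the range of replicates 3-4. IFI27 was at 105 CPM, BST2 at 11.1 CPM and IFI44L at 6.0 CPM, beside IRF9 at 21.8 CPM, which was within the range of replicates 1-2. Of all 35 tested members 18 were below the lowest library of replicates 1-2. The 16 were picked for being high in every library of replicates 1-2, so a further library can fall below them through that choice. The share of all tested genes that did so is not given here. Of the 32 respiratory chain subunits without overlap, 25 were within the range of replicates 1-2, with COX5A at 98.1 CPM and ATP5F1B at 108 CPM. These 32 were likewise picked on the libraries compared. The summed subunits also spanned more in replicates 1-2 (9757 to 13410 CPM) than in 3-4 (14730 to 15920 CPM), so a level within the first range is easily met. The share of all tested genes within it is not given here, and the count does not show that replicate 5 resembled replicates 1-2. Long non-coding RNAs took 2.75% of counts in replicate 5, inside the range of replicates 1-2, and mitochondrial mRNAs 1.16%.

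In SCC154 the same division of replicate numbers gave no gene past the threshold in edgeR (0 of 12021; lowest adjusted p = 0.999; 225 genes at an unadjusted p under 0.05; 1 gene in DESeq2, 0 in limma voom). The fitted spread between libraries (coefficient of variation) was 0.179 there against 0.103 in FaDu, with 7 libraries in place of 8. A difference of equal size was therefore less likely to pass in SCC154. Over 10516 genes tested in both lines, which are not independent, the log2 fold changes of the 2 lines had a Pearson correlation of 0.01 and a Spearman correlation of 0.04. Of the FaDu genes higher without overlap 51.0% were higher in SCC154, and of those lower 44.6%, against 47.7% of all. Interferon-stimulated genes had a median of -0.00 in SCC154, where 15 of 30 were higher and 15 lower. BST2 was there at 236 to 336 CPM, a difference of -0.06 ± 0.14. Respiratory chain subunits had a median of -0.01 and HIF targets of 0.09. Other lists had the same sign as in FaDu: 69 of 76 ribosomal proteins were higher (median 0.09), as were 19 of 23 genes of the unfolded protein response (0.20) and 15 of 24 of cholesterol synthesis (0.12), and 10 of 13 mitochondrial mRNAs were lower (-0.09). For the summed ribosomal proteins only replicate 4 (53738 and 58278 CPM, per total counts) lay above replicates 1-2 (44838 to 52366 CPM). Replicate 3 (46998 and 46238 CPM) lay within their range. The medians by span also ran from positive to negative, with 0.04, 0.01, -0.02, -0.03 and -0.04 from the shortest to the longest genes, while 7 of 9 nuclear-retained long non-coding RNAs were higher (0.06). ATF4 pathway genes were higher in 33 of 33, with a median of 0.31, and none passed singly.

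The genes separated in FaDu also varied among SCC154 libraries, but not by number in the same way. COX5A was at 83.2, 69.4 and 87.2 CPM in post-hypoxic replicate 2 and in non-hypoxic and post-hypoxic replicate 4, and at 16.3 to 32.4 CPM in the other 6 SCC154 libraries (per total counts, replicates 5 included). DDT was at 90.5 to 96.7 CPM in the same 3 libraries and at 21.8 to 45.4 CPM in the others, and CD9 at 71.6 to 150 CPM and at 34.1 to 49.0 CPM. For the FaDu genes that were higher in 3-4 without overlap (931 with at least 10 CPM in SCC154), the median of log2(CPM + 2), relative to the mean of the 9 SCC154 libraries, was 0.17, 0.16 and 0.21 in these 3 libraries. It was -0.15 and -0.22 in non-hypoxic and post-hypoxic replicate 3, -0.12 in non-hypoxic replicate 2 and between -0.02 and 0.00 in replicate 1 and both replicates 5. The FaDu genes that were lower (704) had the reverse, with -0.05, -0.12 and -0.15 in the 3 libraries and 0.08 and 0.12 in replicate 3. MALAT1 and NEAT1 together took 1.05, 1.02 and 0.80% of counts in the 3 libraries, 1.5 and 1.57% in replicate 3 and 1.09 to 1.33% in the rest. Replicates 3 and 4 thus lay at opposite ends of this pattern in SCC154 and on the same side in FaDu. The summed interferon-stimulated genes were 1834, 1725 and 1756 CPM in the 3 libraries and 1800 to 2089 CPM in the others. These SCC154 libraries were set apart after their values were seen, and no test was made between them.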

How the data were processed

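RNA from 18 libraries was sequenced as 3′ tags (QuantSeq). The authors deposited a table of raw counts for 41120 gene symbols, and the submitters' processing notes name build hg38, the aligner HISAT2 2.2.1, the counter featureCounts 1.5.1, Trimmomatic 0.39 for trimming, UMI-tools 1.1.5 for molecular identifiers, quality control in FastQC 0.11.9, and DESeq2; the strand setting is not given in the sources used here. Counts were fitted in R 4.3.3 with edgeR 4.0.16 (quasi-likelihood test, TMM scaling, filter on low counts, Benjamini-Hochberg adjustment over all tested genes, threshold 0.05). The division was fitted with the sorted population as a covariate (5 residual degrees of freedom), and replicates 2 against 1 and 4 against 3 in a fit with replicate numbers (3 residual degrees of freedom). Alternatives used limma 3.58.1, DESeq2 1.42.0, other scaling, no filter and fewer libraries. The scripts were tested on simulated data.

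Libraries sharing a number deviated together most clearly for numbers 1 and 4 (correlations of 0.567 and 0.490). For numbers 2 and 3 the correlations were 0.270 and 0.200, beside -0.512 to 0.245 between different numbers, so the pairing is weak there. The numbers were taken to pair the libraries on the evidence of the data, and the labels do not state a pairing. The division, the members and the gene lists were chosen with earlier results of these data known. Genes were named by rule: the 14 largest differences each way among genes with at least 10 CPM and no overlap, up to 3 such members per list, and up to 5 genes per direction in each tested comparison. Other genes were named after their values were seen. A few genes that the rule names are not reported here, though they stay in the fits and in the counts over lists. In all 36 pairs of FaDu libraries and 36 pairs of SCC154 libraries the variation exceeded counting noise (chi-square per degree of freedom of at least 1.39 and 1.90). Gene positions and promoter sequences come from the reference annotation on GRCh38 and from RefSeq.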

Additional observations from a re-analysis of the deposited data

Results flagged for a closer look

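Of 222 groups of 4 libraries (111 named genes in replicates 1-2 and in 3-4), 14 (6.31%) held a library far from the other 3. The rule flags about 1 in 20 groups of 4 independent, normally distributed values. These libraries share numbers and sorted populations, and some genes were named from contrasts of them, so the chance rate here is not known. In replicates 3-4, UBE2S was at 115 CPM in post-hypoxic replicate 3 beside 12.2 to 13.1 CPM. C6orf141 was at 12 CPM in that library beside 5.85 to 6.43 CPM, and NFATC4 at 18.3 CPM beside 8.40 to 9.25 CPM. Non-hypoxic replicate 3 had CCNG2 at 11.7 CPM beside 18.7 to 20.1 CPM, MT-CYB at 821 CPM beside 694 to 713 CPM, and PTMAP2 at 47.7 CPM beside 11.1 to 14.7 CPM. Non-hypoxic replicate 4 had GINS2 at 111 CPM beside 97.4 to 98.1 CPM and RPS2P29 at 60.4 CPM beside 4.38 to 6.43 CPM.

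In replicates 1-2, non-hypoxic replicate 2 had FTH1P20 at 307 CPM beside 0 to 3.18 CPM, MTCO2P12 at 122 CPM beside 1.84 to 13.2 CPM, and GCLC at 67.0 CPM beside 52.2 to 53.8 CPM. Non-hypoxic replicate 1 had ELOVL5 at 51.5 CPM beside 75.5 to 78.1 CPM, HMGN1P8 at 20.2 CPM beside 14.9 to 15.4 CPM, and TSR3 at 12.4 CPM beside 24.3 to 26.6 CPM.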

How the results depend on the processing

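The number of genes past an adjusted p of 0.05 across the FaDu division describes only how far the fit depends on its settings and tests nothing, since the division was chosen on these values. It was 1035 of 11315 in edgeR (666 higher in 3-4 and 369 lower; 552 and 530 with upper-quartile factors), 734 in DESeq2, 1047 in limma voom, 1044 with DESeq2 size factors, 1082 with upper-quartile factors, 1537 without a filter, 1116 without the sorted population in the model and 26 when all 18 libraries shared the estimate of spread. With the replicate number as a block it was 588 (random block) and 18 (summed counts); the fixed replicate block gave 9 genes for the sort and 6 for its interaction. Without both libraries of number 1, 2, 3 or 4, alternatives chosen after seeing the data, 666, 2817, 438 and 2 genes passed, and for numbers 1, 2 and 3 left out 3268, 5061 and 3792 genes did not overlap. The number of genes that passed thus rested most on replicate 4. Within the non-hypoxic or post-hypoxic libraries alone, 5448 and 5158 genes did not overlap. Sets of fewer libraries separate more often for that reason alone. Counts without overlap from fewer libraries, here and below, therefore cannot be compared with that of the full division. Without a filter, 21 genes passed for the sort, 91 for replicate 4 against 3, 15 for the interaction, 85 for replicate 5 and 16 in SCC154. DESeq2 gave 3, 173, 4 and 1 for the sort, replicate 2 against 1, replicate 4 against 3 and SCC154. Leaving out single libraries gave 246 (non-hypoxic replicate 4) to 1709 (non-hypoxic replicate 2) genes for the division, 2098 to 2860 without overlap, 247 to 1363 for replicate 2 against 1, 11 to 115 for replicate 4 against 3, 0 to 1 for the sort, 0 to 1 for the interaction, 0 to 0 for replicate 5 and 0 to 1 in SCC154. The cause was not tested. Without single libraries, 2 values of named genes moved by more than the spread between replicates and 718 did not, and 19 list medians moved and 221 did not. That spread is the one between single libraries. Leaving out 1 of the 4 libraries of a side shifts the side's mean by only a part of that library's deviation. Few values could therefore move, and these counts do not show that the values are stable. Under the other settings 31 values of named genes and 42 list medians moved, and 1139 and 348 did not. Of the 30 list medians, 13 changed sign without both libraries of replicate 1, among them HIF targets (0.07 to -0.21) and the ATF4 pathway (0.10 to -0.01), and 3 changed sign with upper-quartile factors, among them immediate early genes (0.02 to -0.02). The medians of interferon-stimulated genes, respiratory chain subunits, ribosomal proteins, cholesterol synthesis, the unfolded protein response and mitochondrial mRNAs changed sign under none of the settings run. Genes of a few CPM rest on few counts.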
